A study of Mus musculus with 6 samples.

Results

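The stem cell homeobox and related factors described here are 9 transcription factor genes: the clustered homeobox genes *Hoxa5*, *Hoxa7*, *Hoxa9*, *Hoxa10* and *Hoxb4*, the TALE homeobox gene *Meis1*, the PR domain genes *Mecom* and *Prdm16*, and the PAR bZIP gene *Hlf*. They were taken by name, through the Ensembl identifier of each row, and all 9 were among the 12101 genes of the deposited table. The measurements were RNA-seq of sorted megakaryocyte–erythroid progenitors (MEPs) from adult Nanog-tg mice of strain CD-1. Every mouse carried *R26-M2rtTA* and *Col1a1-tetO-Nanog*, so that a reverse tetracycline transactivator made from the *Rosa26* locus switches on a *Nanog* cDNA wherever doxycycline (dox) is present. There were 3 libraries from mice given dox in their drinking water for 5 days and 3 from untreated mice of the same genotype. No mice without the transgene were given dox among these libraries, so an effect of dox and an effect of *Nanog* cannot be told apart. The study sorted marrow progenitors from lineage-negative, cKit+ and Sca1- cells by CD16/32 and CD34. The number of mice behind a library and their age are not given in the sources used here.

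Homeobox proteins bind DNA through the homeodomain. Clustered Hox proteins gain specificity by binding together with TALE homeodomain proteins of the MEIS and PBX families, and *Hoxa9* with *Meis1* is a classical pair of stem cell self-renewal and of leukaemia. *Mecom*, which encodes EVI1 and MDS1-EVI1, its relative *Prdm16*, and *Hlf* are each needed to keep or are marks of haematopoietic stem cells. *Mecom*, *Prdm16* and *Hlf* are normally turned down as progenitors commit to the erythroid lineage.

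*Mecom* has 2 starts in RefSeq, from which the longer MDS1-EVI1 and the shorter EVI1 are made, and the gene-level values below cannot separate them. The 250 bases before each start are shown because *Mecom* had the largest fold change of the 9 genes. *Hoxa5* is shown because it was the one member with copies of TAATGG, a core of NANOG-bound sequence, in this window. Sequences are from RefSeq on GRCm38.p6, at chr3:30509760-30510009, chr3:30013205-30013454 and chr6:52204588-52204837, all on the minus strand and printed 5′ to 3′ in the direction of the gene. Capitals mark the motif matches.
Mecom, start of MDS1-EVI1: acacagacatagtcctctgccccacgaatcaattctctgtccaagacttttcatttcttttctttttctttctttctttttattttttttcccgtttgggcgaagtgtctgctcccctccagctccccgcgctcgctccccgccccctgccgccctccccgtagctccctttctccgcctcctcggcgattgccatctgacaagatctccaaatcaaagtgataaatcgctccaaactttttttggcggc
Mecom, start of EVI1: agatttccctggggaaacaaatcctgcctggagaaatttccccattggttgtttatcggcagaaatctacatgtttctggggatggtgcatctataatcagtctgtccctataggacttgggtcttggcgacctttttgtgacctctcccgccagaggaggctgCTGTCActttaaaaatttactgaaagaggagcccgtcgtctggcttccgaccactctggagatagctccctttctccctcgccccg
Hoxa5: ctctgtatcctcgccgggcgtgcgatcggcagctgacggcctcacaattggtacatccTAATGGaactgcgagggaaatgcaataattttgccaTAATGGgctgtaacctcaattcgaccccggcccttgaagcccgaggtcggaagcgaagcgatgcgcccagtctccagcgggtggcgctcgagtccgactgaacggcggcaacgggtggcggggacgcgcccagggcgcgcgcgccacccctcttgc

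The table of promoters gave 11 windows for the 9 genes, and 3 motifs that do not overlap one another were searched on both strands. TAATGG occurred 2 times before *Hoxa5*, beginning 192 and 156 bases before the start, while 6.57% of all 32851 RefSeq promoter windows of this length held it and 0.344% held it at least 2 times. TGACAG, the MEIS-type TALE site, occurred before the EVI1 start of *Mecom*, on the opposite strand and beginning 86 bases before the start, and 15.9% of all windows held it. TGATTNAT, a composite HOX-PBX site present in 2.82% of all windows, was in none of the 11. The remaining 9 windows held none of the 3 motifs. These matches describe letters in the window and not binding.

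The libraries held 11264803 to 16153600 reads on listed genes, so that 1 read was worth 0.0642 to 0.091 CPM, the unit in which reads are scaled to a common normalized library size. *Nanog*, the induced gene, had 17062, 19609 and 15959 reads in dox-treated replicates 1, 2 and 3 and 9, 13 and 1 reads in the untreated replicates. The induced gene was thus high in each library labelled as treated and near absent in each untreated one. Dox-treated replicate 3 stood apart from the other dox-treated libraries. On the first principal component of all genes it lay at -14.8, between dox-treated replicates 1 and 2 at -57.5 and -56.3 and the untreated libraries at 35.1 to 54.2. On the second component it lay at -51.7, away from all other libraries at -4.83 to 20.2. Its *Nanog* level was 1020 CPM, against 1260 and 1460 CPM in dox-treated replicates 1 and 2. The results of the 9 factors and the counts for each gene list are therefore given with and without it. The defining MEP genes *Gata1*, *Klf1* and *Epor* were at 93.3 CPM or above in every library, and all 12 genes of the MEP list were in the table.

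The 9 factors had higher levels in dox-treated replicates 1 and 2 than in any untreated library. In dox-treated replicate 3, 3 factors were above the untreated libraries, 2 (*Hoxa5* and *Hoxb4*) below them and the others within their range. Their summed level was 180.3, 204.0 and 73.2 CPM in dox-treated replicates 1 to 3 and 71.4, 49.4 and 73.4 CPM in the untreated replicates. Thus the sum in replicates 1 and 2 was above the untreated range, and that in replicate 3 was within it. Of the 9 genes, 9 were above every untreated library in both dox-treated replicates 1 and 2, a pattern found in 31.1% of the 12088 genes tested, and 3 (*Hoxa10*, *Mecom* and *Hlf*) were so in replicate 3, where 35.3% of all genes were. In bulk RNA a change in the share of cells that express a gene and a change in the RNA per cell cannot be told apart.

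In limma on all 6 libraries, with Benjamini–Hochberg adjustment over all genes tested, none of the 9 factors passed an adjusted p of 0.05 in either direction. Over all genes 4.59% passed as higher and 3.18% as lower. All 9 had a higher mean log2 level with dox, as had 47.3% of all genes, and 6 of 9 had an unadjusted p under 0.05 as higher, against 15.6% of all genes. The 3 dox-treated libraries lay entirely above the 3 untreated ones for 3 of 9 factors, against 17.7% of all genes. The median log2 fold change was 1.13 for the 9 factors and -0.03 for all genes tested. An exact permutation test of 3 against 3 libraries cannot give less than 0.1, which *Hoxa10*, *Mecom* and *Hlf* reached.

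Without dox-treated replicate 3, 9 of 9 factors passed as higher, with 14.4% of the 11923 genes tested doing so. This fit rests on 2 dox-treated libraries. Array quality weights of limma were used next. They are estimated from each library's departure from its group in these same values, not from a separate measure of quality. Replicate 3 received a weight of 0.163 and 8 of 9 factors passed (all but *Hoxa5*), against 20.8% of all genes. This fit thus resembles leaving replicate 3 out and is not separate evidence. Weighting by quality below means these weights. With a mean–variance trend in limma, *Hlf* and *Mecom* passed, with 7.52% of all genes. The median log2 difference of the 9 factors from the untreated mean was 1.34 for dox-treated replicates 1 and 2 and 0.21 for replicate 3.

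**Figure D1:**
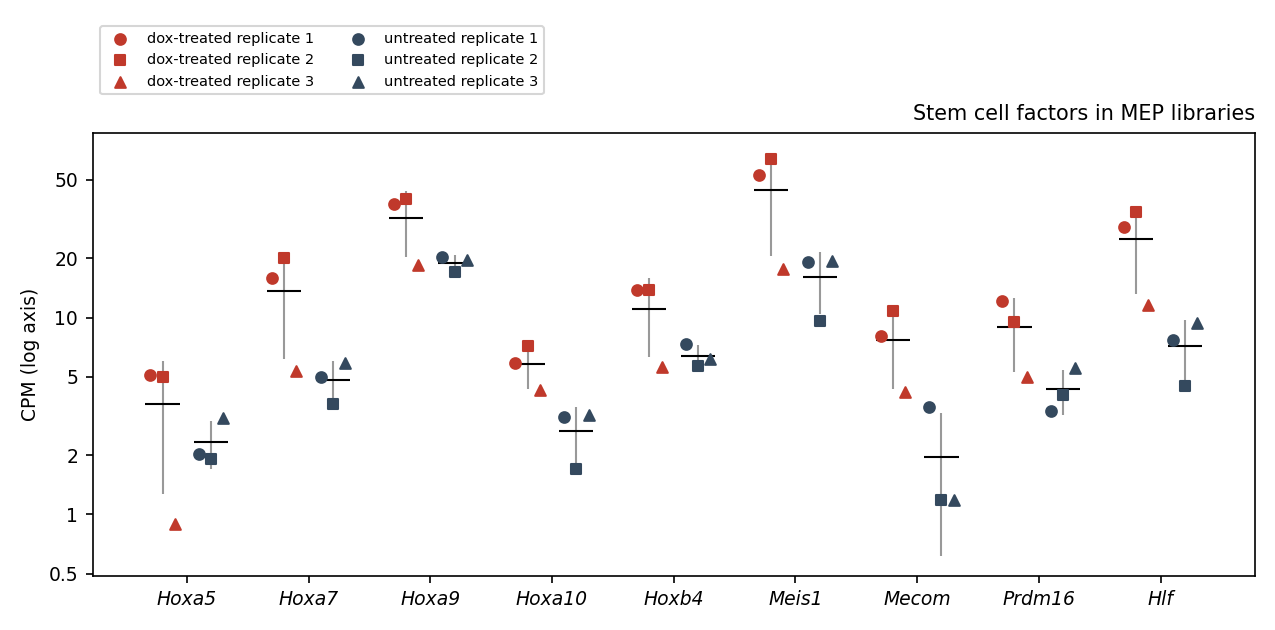
Level of the 9 factors in CPM (log axis) in each of the 6 MEP libraries. Points are libraries, black bars are group means and grey lines are 1 SD (n = 3). Dox-treated replicates 1 and 2 lie above all untreated libraries for each gene, while replicate 3 does so only for *Hoxa10*, *Mecom* and *Hlf*.

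*Hoxa9*, the most abundant of the clustered Hox genes here and the partner of *Meis1* in progenitors, was at 37.8, 40.0 and 18.6 CPM in dox-treated replicates 1, 2 and 3 and at 20.4, 17.1 and 19.6 CPM in the untreated ones. Dox-treated replicates 1 and 2 were above each untreated library and replicate 3 was among them. The means were 32.1 ± 11.8 and 19.0 ± 1.68 CPM (SD, n = 3). On the log2 scale the difference was 0.68 (SE 0.31, adjusted p = 0.207 in limma). Without replicate 3 it was 1.03 (SE 0.11, adjusted p = 0.00957), with a 95% interval of 0.75 to 1.32.

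*Hoxa7*, its neighbour in the cluster, was at 15.8, 20 and 5.33 CPM with dox and at 4.98, 3.62 and 5.91 CPM without. Replicate 3 again lay inside the untreated range. The log2 fold change was 1.32 (SE 0.52, adjusted p = 0.156), and 1.90 (SE 0.24, adjusted p = 0.0133) without that library.

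*Hoxa10*, a factor of myeloid and megakaryocytic progenitors, was at 5.89, 7.15 and 4.30 CPM with dox and at 3.11, 1.70 and 3.18 CPM without. The groups did not overlap, with 67 reads in the lowest dox-treated library and 35 in the highest untreated one, untreated replicate 3. Its log2 fold change was 1.13 (SE 0.31, adjusted p = 0.079), and 1.33 (SE 0.32, adjusted p = 0.0394) without replicate 3.

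*Hoxa5* behaved differently in replicate 3. This gene, linked to the choice between erythroid and myeloid fates, was at 5.08, 4.99 and 0.898 CPM with dox and at 2.02, 1.92 and 3.09 CPM without, so that replicate 3, with 14 reads, was below all untreated libraries and replicates 1 and 2 above them. The log2 fold change was 0.31 (SE 0.70, 95% interval -1.40 to 2.01, adjusted p = 0.792) and turned to -0.11 when dox-treated replicate 1 was left out. It was 1.12 (SE 0.23, adjusted p = 0.0291) without replicate 3.

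*Hoxb4*, known for expanding stem cells when overexpressed, was at 13.8, 13.8 and 5.58 CPM with dox and at 7.31, 5.69 and 6.19 CPM without. Replicate 3 was the lowest of the 6 libraries, by a small margin below untreated replicate 2. The log2 fold change was 0.68 (SE 0.38, adjusted p = 0.279), and 1.11 (SE 0.13, adjusted p = 0.012) without replicate 3.

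On mouse assembly NCBIM37 the *Hoxa* members lie on the minus strand of chromosome 6, *Hoxa5* at chr6:52151753-52154586, *Hoxa7* at chr6:52164490-52171853, *Hoxa9* at chr6:52173099-52181088 and *Hoxa10* at chr6:52181196-52190853. *Hoxb4* is at chr11:96177998-96182952. Of the annotated *Hoxa* genes, 7 were in the table. Outside the members, 3 of 34 other Hox genes were in the table and 1 passed, as lower. That gene was *Hoxa4*, at 0.884, 1.19 and 1.16 CPM with dox and 1.87, 2.22 and 1.64 CPM without, with replicate 3 at the level of the other dox-treated libraries (log2 fold change -0.81, SE 0.17, adjusted p = 0.0469 in limma). Its counts were low, at 12, 16 and 18 reads with dox and 24, 30 and 18 without. *Hoxa4* passed in 4 of 15 alternatives, whose adjusted p ran from 0.0143 to 0.333. Among those it failed was limma with a mean–variance trend (adjusted p = 0.197). *Hoxa3* was at 4.49, 4.09 and 1.35 CPM with dox and 1.24, 1.03 and 1.27 CPM without (log2 fold change 1.28, adjusted p = 0.137), and passed without dox-treated replicate 3 (1.83, adjusted p = 0.00534). In that fit *Hoxa3* was thus called higher and *Hoxa4* lower. *Hoxa6*, named after its values were seen because it completes the row, was at 3.61, 3.42 and 0.642 CPM with dox and 1.71, 1.77 and 0.728 CPM without (0.60, adjusted p = 0.613). With the exception of *Hoxa4*, each of these genes was above every untreated library in dox-treated replicates 1 and 2.

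**Figure D2:**
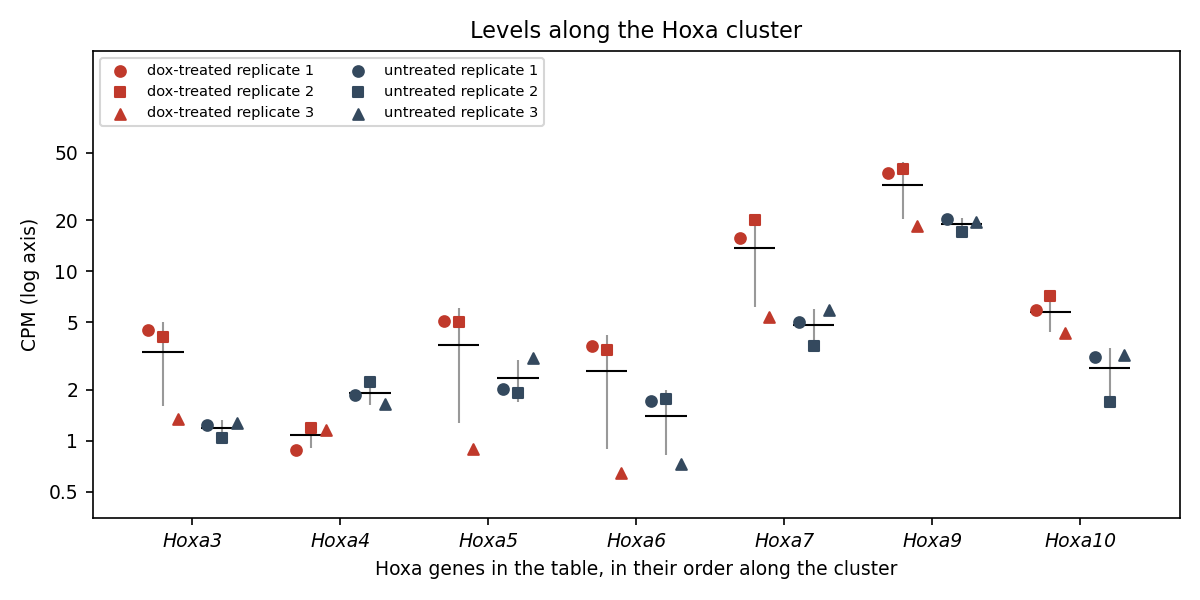
Level in CPM (log axis) of the 7 *Hoxa* genes in the table, in their order along the cluster. Points are libraries, black bars means and grey lines 1 SD (n = 3). *Hoxa4* is the gene whose 3 dox-treated libraries all lie below the untreated ones, and *Hoxa9* has the highest level.

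Reads of some members could not be assigned to them alone. *Hoxa9* shares 198 exonic bases on its strand with the transcript RP23-329P9.11, which is in the table with 75, 65 and 28 reads in the dox-treated and 30, 13 and 14 reads in the untreated replicates. It also shares 186 bases with the pseudogene 9930038K12Rik and 85 bases with *Mir196b*. *Hoxb4* shares 110 bases with *Mir10a*. On the opposite strand, *Hoxa7* overlaps 586 exonic bases of 2700086A05Rik, *Meis1* 896 bases of Gm16140 and *Mecom* 81 bases of Gm16722. *Hoxa5* lies within the annotated span of *Hoxa3* on its own strand, with no shared exonic bases. Whether strand was used in counting is not given in the sources used here, so the values of genes with shared exonic bases are uncertain to that extent.

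*Meis1*, the TALE partner of HOXA9, was at 52.7, 63.6 and 17.6 CPM with dox and at 19.1, 9.61 and 19.4 CPM without, from 130 to 854 reads. Its highest untreated value was above that of dox-treated replicate 3. The means were 44.7 ± 24.0 and 16.0 ± 5.55 CPM (SD, n = 3). On the log2 scale the difference was 1.35 (SE 0.55, 95% interval 0.00 to 2.70, adjusted p = 0.171), and 1.92 (SE 0.35, adjusted p = 0.0239) without replicate 3. *Meis1* lies at chr11:18780433-18918961 on the minus strand.

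Of the 10 other TALE genes listed, 7 were in the table, 1 passed as higher and 1 as lower, with a median log2 fold change of -0.14. Without dox-treated replicate 3, 2 passed as higher and 2 as lower, where 1712 and 1695 of all 11923 genes tested did. When any other library was left out, 0 were lower, and 0 were higher except without dox-treated replicate 1, where 1 was. *Pbx3*, a HOXA9 cofactor, rose from 8.55, 8.57 and 7.82 CPM in the untreated libraries to 13.0, 17.0 and 16.3 CPM with dox, replicate 3 included (log2 fold change 0.88, SE 0.14, adjusted p = 0.0232). *Pbx4* fell from 12, 10.6 and 15.4 CPM to 6.77, 5.06 and 6.03 CPM (-1.08, SE 0.18, adjusted p = 0.0294). Over 16 alternatives *Pbx3* passed in 9 and *Pbx4* in 10, with the adjusted p at most 0.107 for *Pbx3* and 0.106 for *Pbx4*. In dox-treated replicate 3 *Pbx3* was thus above all untreated libraries, whereas *Meis1* was within their range.

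*Mecom* had the largest fold change. It was at 8.10, 10.8 and 4.17 CPM with dox, from 110, 145 and 65 reads, and at 3.50, 1.18 and 1.18 CPM without, from 45, 16 and 13 reads. All 3 dox-treated libraries were above the untreated ones, replicate 3 by a small margin over untreated replicate 1. Its log2 fold change was 2.04 (SE 0.54, 95% interval 0.72 to 3.36, adjusted p = 0.0737), and 2.43 (SE 0.54, adjusted p = 0.0334) without replicate 3. With a mean–variance trend it passed at an adjusted p of 0.0395. The gene spans chr3:29850221-30446930 on NCBIM37 and has 18 annotated transcripts.

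*Prdm16*, the other PR domain member, was at 12.2, 9.53 and 5.01 CPM with dox and at 3.34, 4.06 and 5.55 CPM without. Untreated replicate 3 was above dox-treated replicate 3. The log2 fold change was 0.98 (SE 0.37, adjusted p = 0.146), and 1.34 (SE 0.25, adjusted p = 0.0243) without the latter. It lies at chr4:153690234-154010982.

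*Hlf*, whose protein binds as a dimer with other PAR bZIP factors and marks stem cells, was at 28.9, 34.2 and 11.6 CPM with dox and at 7.70, 4.51 and 9.37 CPM without. The groups did not overlap and replicate 3 was the nearest to the untreated ones. Means were 24.9 ± 11.8 and 7.19 ± 2.47 CPM (SD, n = 3). On the log2 scale the difference was 1.71 (SE 0.48, adjusted p = 0.0831), and 2.19 (SE 0.34, adjusted p = 0.0178) without replicate 3. With a mean–variance trend the adjusted p was 0.0386. *Hlf* lies at chr11:90197849-90252231.

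**Figure D3:**
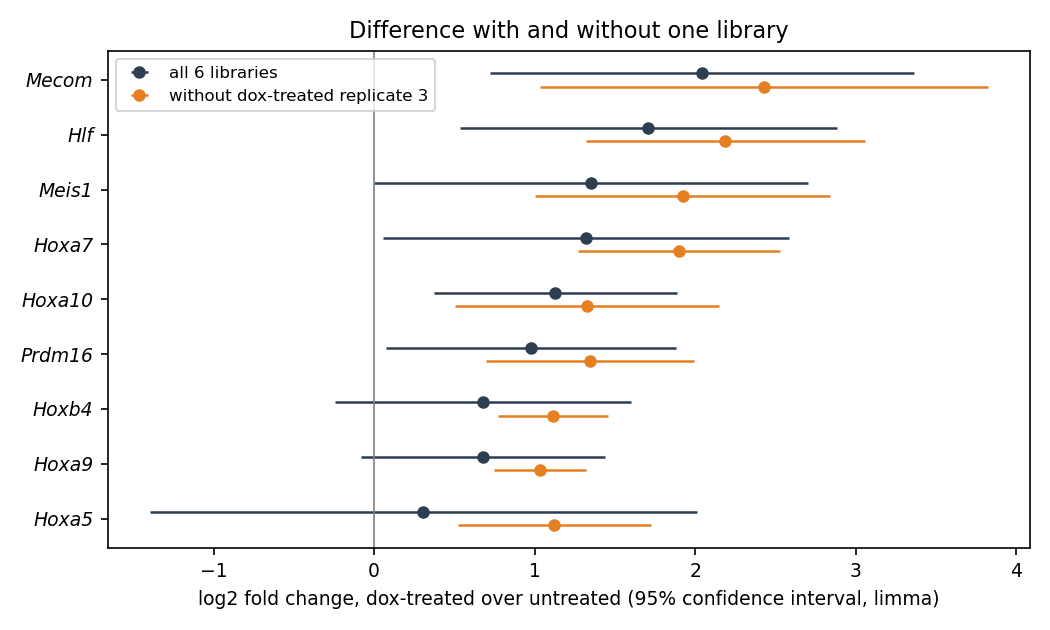
Log2 fold change of dox-treated over untreated MEPs for each factor, with its 95% confidence interval from limma, in all 6 libraries and without dox-treated replicate 3. The point estimate of each gene is further from 0 without that library. The interval for *Mecom* is the widest of the 9 without that library, and with all 6 libraries that for *Hoxa5* is.

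Per kilobase of the longest annotated transcript, untreated MEPs held most *Hoxa9* (5.90 ± 0.52 CPM per kb, SD, n = 3) and *Meis1* (4.67 ± 1.62), whose ranges overlapped. *Hoxa7* followed (2.38 ± 0.57) and overlapped *Meis1* in range. *Hoxb4* (1.54), *Hlf* (1.25), *Hoxa5* (1.25) and *Hoxa10* (1.04) overlapped one another in turn. *Prdm16* (0.50) and *Mecom* (0.34) were the lowest and overlapped each other on this length. Over the union of exons *Mecom* was at 0.18 CPM per kb and no longer overlapped *Prdm16* (0.46). With dox *Meis1* was first (13.0 ± 7.0 CPM per kb) before *Hoxa9* (9.96 ± 3.64), within their spread. Counted over the union of all annotated exons, *Meis1* was lower, at 2.17 ± 0.75 CPM per kb in untreated MEPs, where its range no longer overlapped that of *Hoxa9* (5.45 ± 0.48). On that length the order with dox turned, to 9.20 ± 3.37 for *Hoxa9* and 6.04 ± 3.25 for *Meis1*. Over the 36 pairs of members the Pearson correlation of log2 levels over the 6 libraries was 0.41 to 0.99 with a median of 0.88, with no test, since all members share the same libraries and one library that stands apart.

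Gene lists of related and other cell types, chosen with earlier results of these data known, were read in the same libraries. Shares of all genes passing as higher were 4.59% with all 6 libraries, 14.4% without dox-treated replicate 3, 20.8% with array weights and 7.52% under the trend. Passing as lower were 3.18% with all 6 libraries, 1695 of 11923 genes without dox-treated replicate 3 and 2601 of 12088 with array weights. Among 26 genes listed for stem and multipotent progenitors, 22 were tested and 3 rose: *Hmga2*, a chromatin protein of fetal stem cells (log2 fold change 3.72, adjusted p = 0.03), *Ctnnal1* (2.32, adjusted p = 0.0336) and *Tek*, the angiopoietin receptor (3.36, adjusted p = 0.0471). Without dox-treated replicate 3, 12 of 20 passed, and 0 did when any other library was left out. With all 6 libraries, 6 passed after quantile normalization, 8 on log2(CPM + 1), 6 with a filter of 5 CPM, 15 when libraries were weighted by quality and 9 under the mean–variance trend. In dox-treated replicate 3, 14 of the 22 were above every untreated library, with a median log2 difference from the untreated mean of 0.70, against 3 of the 9 factors and 0.21. Over all genes tested 35.3% were so, with a median of 0.002. The median log2 fold change of the list was 0.99, and the stem cell surface markers *Procr* and *Ly6a* were not in the table. The list's summed level was 1408 to 1924 CPM with dox and 1163 to 1405 CPM without. No gene of the list passed as lower, except 1 when libraries were weighted by quality. *Kit* and *Gata2* are on this list and also on those of MEPs and mast cells.

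The summed level of granulocyte and monocyte genes was lower in each dox-treated library than in each untreated one. Of 16 markers 10 fell, with a median log2 fold change of -2.19, and 11 did without dox-treated replicate 3. When another library was left out, 4 fell without dox-treated replicate 1, 4 without dox-treated replicate 2, and 6, 9 and 2 without untreated replicates 1, 2 and 3. Examples were *Ly6c2* (log2 fold change -3.31, adjusted p = 0.00828), *Fcnb* (-3.96, adjusted p = 0.0101), the protease *Elane* (-3.22, adjusted p = 0.0108) and the granulocyte factor *Cebpe* (-2.85, adjusted p = 0.0109). Their summed level was 563.5 to 860.1 CPM with dox and 2473 to 5692 CPM without, and none was at 0 reads in any library. *Fcgr3* of this list and *Kit* and *Cd34* of the stem cell list encode surface markers of the sort. *Cd34* was at 172, 129 and 62.8 CPM with dox and 57.6, 23.8 and 48.1 CPM without (log2 fold change 1.47, adjusted p = 0.114), and passed without dox-treated replicate 3 (1.88, adjusted p = 0.0339). The differences of *Kit* (-0.39, adjusted p = 0.189) and *Fcgr3* (-1.03, adjusted p = 0.146) passed in neither fit. These 3 genes are named after their values were seen. In dox-treated replicate 3 the summed level of the 9 factors was that of untreated libraries, while that of the granulocyte–monocyte markers was the lowest of all 6 libraries. The part of these markers in the result for the 9 factors was not tested.

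The summed megakaryocyte markers were, as were the 9 factors, above the untreated range in dox-treated replicates 1 and 2 and within it in replicate 3. In replicate 3, 5 of 12 were above every untreated library, near the 35.3% of all genes, among them *Rab27b* (12.7 CPM against at most 7.93 CPM), *Gp9* (8.53 against 5.09 CPM) and *Selp* (3.85 against 2.64 CPM). Of 15 markers 12 were tested, 4 rose and 1 fell (6 and 2 without dox-treated replicate 3, and 0 rose and 0 to 2 fell without any other library), with summed levels of 492.7, 472.3 and 168.8 CPM in dox-treated replicates 1 to 3 and 116.3 to 172.5 CPM in untreated libraries. Much of this sum was *Itga2b*, the CD41 integrin chain that is also on the MEP list, at 319, 314 and 66.9 CPM with dox and 37.5, 24.1 and 39.2 CPM without. The platelet genes *Rab27b* (log2 fold change 1.18, adjusted p = 0.0245), *Gp9* (1.28, adjusted p = 0.0321) and *Selp* (1.19, adjusted p = 0.041) rose, and *Vwf* fell (-1.31, adjusted p = 0.0181). *Ppbp*, *Gp6* and *Clec1b* were not in the table. Of the 12 MEP genes 0 passed in either direction in limma, with 2 higher and 5 lower at an unadjusted p under 0.05, and *Itga2b* (2.52, adjusted p = 0.0694) and *Gata2* (1.46, adjusted p = 0.0698) had the smallest p. On log2(CPM + 1), with a filter of 5 CPM, with voom weights or under the mean–variance trend, 2 passed as higher. The trend also gave 1 as lower. Without dox-treated replicate 3, 2 passed as higher and 5 as lower, among the latter *Gata1* (adjusted p = 0.0202), *Klf1* (adjusted p = 0.0154) and *Epor* (adjusted p = 0.0179), which are named as defining MEP genes and after their values were seen, and with array quality weights 2 passed as higher and 8 as lower. With all 6 libraries the median log2 fold change was -0.41. The sums were 3765, 3412 and 5694 CPM in dox-treated replicates 1 to 3 and 4906 to 5116 CPM without dox. Thus the MEP sum was below the untreated range in replicates 1 and 2 and above it in replicate 3. The part of these markers, too, was not tested.

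**Figure D4:**
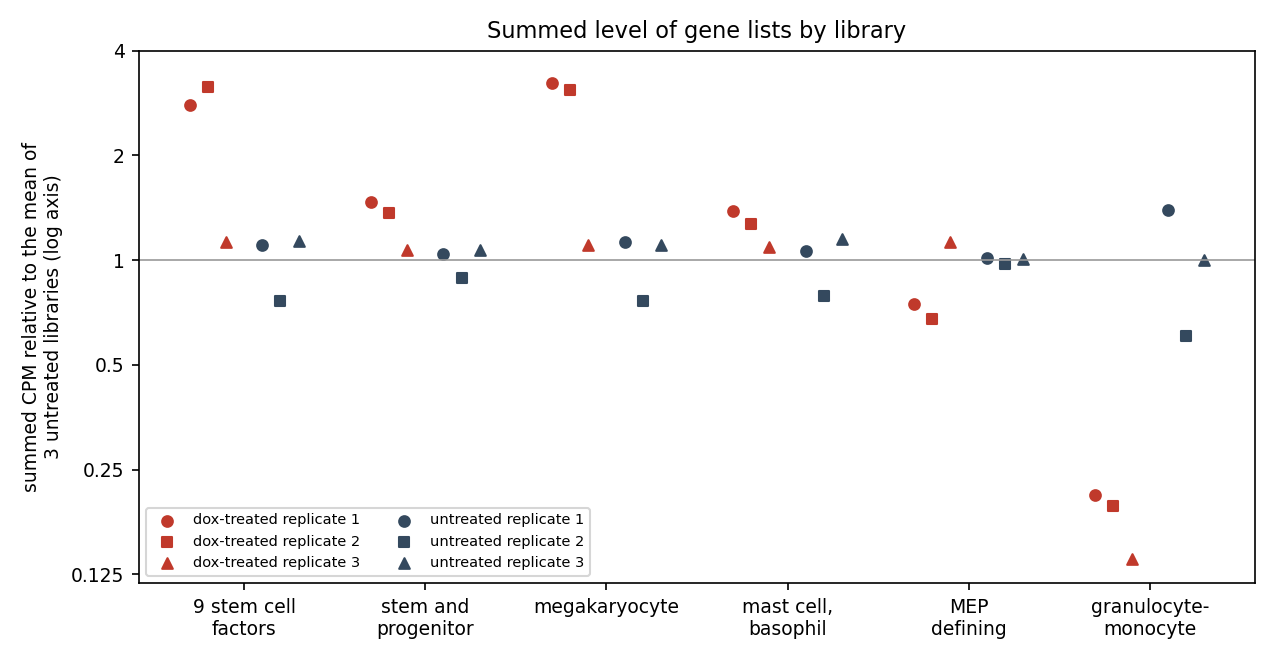
Summed CPM of the 9 factors and of 5 marker lists in each library, relative to the mean of the 3 untreated libraries (log axis). The sums of the factors and of the megakaryocyte markers are high in dox-treated replicates 1 and 2 and at the untreated level in replicate 3, while granulocyte–monocyte markers are low in all 3 dox-treated libraries.

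Genes held to lie downstream of HOXA9 and MEIS1 formed a further list. Of these 18 genes 17 were tested, 0 rose in limma (3 had an unadjusted p under 0.05 as higher), 3 fell, and the median log2 fold change was 0.27. *Id2*, an inhibitor of helix-loop-helix factors, fell from 7.85, 4.43 and 6.37 CPM to 1.62, 1.27 and 1.80 CPM (log2 fold change -1.95, adjusted p = 0.0153). *Trib2*, a leukaemia-linked pseudokinase, fell from 142, 105 and 156 CPM to 34.5, 29.6 and 64.2 CPM (-1.71, adjusted p = 0.0369), and the cyclin *Ccnd3* fell too (-0.61, adjusted p = 0.0466). Without dox-treated replicate 3, 5 of 17 passed as higher and 3 as lower, where 1712 and 1695 of all 11923 genes tested did. When another library was left out 0 passed as higher, and as lower 1 did without untreated replicate 1 or 2 and 0 without the others.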

How the data were processed

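RNA of sorted MEPs was sequenced in 6 libraries, 3 dox-treated and 3 untreated. The authors removed adapters with Cutadapt, quantified reads with RSEM on the NCBIM37 transcriptome and used limma for normalization. The deposited values are log2 CPM relative to a normalized library size, with 0.5 reads added first, and cover 12101 genes. The use of strand and the filter on low genes are not given in the sources used here. Reads were recovered from the deposited values, 100% of them whole within 0.01 reads, and served for depth and for levels in CPM. Symbols came from the NCBIM37 annotation, with 12067 of 12101 genes matched, and older symbols from RefSeq synonyms. Hoxa3 has a second identifier that is not in the table.

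The groups were compared in R 4.3.3 by limma 3.58.1 (lmFit, then eBayes), fitted to deposited values of the 12088 genes that reached 1 CPM in 3 or more libraries. The Benjamini–Hochberg procedure was applied over all of these, with a threshold of 0.05. Fold changes are dox-treated minus untreated on the log2 scale, and tests were two-sided. Alternatives changed scaling, pseudocount, filter, weights, threshold, pairing and libraries. The labels do not say whether replicates are separate mice, so p-values measure the spread between these libraries.

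The 9 members and the 12 gene lists were chosen with earlier results of these data known, and the genes named were all 9 members and, per list, up to 4 past the threshold with the smallest p, or the 2 with the smallest p where fewer than 2 passed. For likeness of pattern, the members with the highest mean CPM and the smallest p were each given their 3 most correlated genes. A limma fit of the same form as the main one was tested on simulated counts, in which no library stood apart. The alternatives were not tested in this way. Promoter windows were the 250 bases before each start in RefSeq (GRCm38.p6). A few list genes are not reported here.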

Additional observations from a re-analysis of the deposited data

How the results depend on the processing

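All 9 factors kept a higher mean with dox in every alternative that could test them, except *Hoxa5*, whose log2 fold change was 0.31 and ran from -0.11 to 1.12 when single libraries were left out, at -0.11 without dox-treated replicate 1 and -0.095 without dox-treated replicate 2. No factor passed in limma with all 6 libraries, 3 did at an adjusted p under 0.10, 2 when the variance was modelled as a trend on the mean, and 8 when libraries were weighted by quality. A replicate block combined with voom weights, an alternative added once the data had been seen, gave 2. Leaving out single libraries gave 0 to 9 factors, the 9 without dox-treated replicate 3 and 0 without each other library. Over all genes 555 passed as higher and 384 as lower, with 909 and 747 under the trend, 2515 and 2601 under array weights, 1273 and 939 at an adjusted p under 0.10, and 65 to 1712 and 20 to 1695 when single libraries were left out (71 and 77 without dox-treated replicate 1, 65 and 89 without replicate 2, 1712 and 1695 without replicate 3, and 133 and 59, 129 and 95, and 95 and 20 without untreated replicates 1, 2 and 3). A replicate block left 53 higher and 29 lower and 0 factors, and among the gene lists 3 granulocyte–monocyte markers and 1 HOXA9 and MEIS1 target as lower. Same-numbered libraries did not deviate together (correlations -0.30 to 0.02, mean -0.13), so the numbers were taken as names only. Quantile normalization, median-of-ratios size factors, log2(CPM + 1), no filter, a filter of 5 CPM and voom weights gave 0 factors. With libraries weighted by quality, 6 of the HOXA9 and MEIS1 targets and 6 mast cell markers passed as higher, and 3 megakaryocyte and 2 mast cell markers as lower. The filter of 5 CPM tested 6 of 9, without *Mecom*, *Hoxa10* and *Hoxa5*. Except where named, the cause was not tested. The lowest member counts were 13 reads for *Mecom* and 14 for *Hoxa5*. Per kilobase, *Meis1* moved from 4.67 to 2.17 CPM when the union of exons replaced the longest transcript.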

Other observations

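Genes of the MLL and DOT1L complexes, which keep Hox genes active through histone methylation, had 15 members tested, of which 1 rose, *Aff4*, a subunit of the super elongation complex, from 66.3, 55.6 and 74.7 CPM to 121, 137 and 103 CPM (log2 fold change 0.88, adjusted p = 0.0369 in limma). *Mllt3* was at 118, 120 and 166 CPM with dox and 94.6, 75.9 and 77.7 CPM without (0.69, adjusted p = 0.0709). The median of the list was -0.12. Without dox-treated replicate 3, 4 passed as higher and 3 as lower, where 1712 and 1695 of all 11923 genes tested did. With array quality weights 4 and 5 passed, against 2515 and 2601 of all 12088 genes. When any other library was left out, 0 passed in either direction. Relatives of *Mecom* and *Prdm16* in the PR domain family had 7 of 13 genes in the table, with 0 called in limma and 1 of 7 at an unadjusted p under 0.05. *Prdm9* passed as higher without dox-treated replicate 3 (adjusted p = 0.0389). *Prdm10* (-0.35, adjusted p = 0.102) and *Prdm9* (0.78, adjusted p = 0.226) had the smallest p. The relatives of *Hlf*, *Tef* and *Dbp*, and the opposing factor *Nfil3*, were between -0.04 and 0.09 on the log2 scale, with 0 of 3 called in limma, with or without dox-treated replicate 3, and 0 at an unadjusted p under 0.05.

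Among the 10 mast cell and basophil markers tested, 3 rose: *Cpa3* (log2 fold change 2.93, adjusted p = 0.00965), the IgE receptor subunit *Ms4a2* (2.75, adjusted p = 0.0219) and *Slc18a2* (1.5, adjusted p = 0.0321). In the fit that left out dox-treated replicate 3, 5 passed as higher and 1 as lower, where 1712 and 1695 of all 11923 genes tested did. With any other library left out, 1 rose and 0 fell. Their sum was 689.3 to 873.9 CPM with dox and 496.4 to 726.0 CPM without, and *Fcer1a*, *Cma1* and *Tpsb2* were not in the table. Of 9 lymphoid markers 0 were called in limma (0 of 8 without dox-treated replicate 3) and 0 had an unadjusted p under 0.05. Their sum was 37.1 to 119.2 CPM with dox and 45.0 to 62.3 CPM without. *Dntt* (1.51, adjusted p = 0.214) and *Il7r* (adjusted p = 0.311) had the smallest p, and *Rag1* was at 0 reads in dox-treated replicate 2.

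The genes whose log2 levels over the 6 libraries were most like *Meis1* were *Dst*, *Tanc1* and *Rgs19*, with a Pearson correlation of 0.998, 0.997 and 0.997, and 1047 genes had one over 0.9. For *Mecom* they were *Fbxo4*, *Lpcat2* and *Gcat*, at 0.997, 0.997 and 0.995, with 611 genes over 0.9. With 6 libraries shared by all genes, this is a description with no test.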
